A study of Homo sapiens with 3 samples.

Results

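The interferon regulatory factors (IRFs) are transcription factors that switch on interferon genes and the genes that interferon induces. The members described here, IRF1, IRF2, IRF3, IRF5 and IRF7, were chosen as named genes of the family, with IRF9 left aside, and their symbols were matched to the Entrez identifiers of the deposited tables. All 5 were found among 18331 identifiers, and all 5 were among the 14016 genes that passed the filter on low counts. Polyadenylated RNA was sequenced in 3 libraries of PC-3 cells, a prostate cancer line grown from a metastasis, taken 7 days after infection with lentivirus carrying short hairpin RNA (shRNA). The group labelled KMT2D shRNA, with the genotype KMT2D deficiency, held 2 libraries, and the group labelled control shRNA, with the genotype KMT2D normal, held 1. All 3 received a lentivirus, and no library of cells without virus was analysed here. The labels do not say whether the KMT2D shRNA libraries came from separate cultures or hairpins. P-values therefore rest on the spread between the pair of labelled libraries, which may be technical, pooled over genes. In edgeR 1 residual degree of freedom stood against 45.7 prior degrees of freedom taken from the other genes. The p-values and SE of a gene thus reflect its own spread only in small part, and the control was assumed to vary like the labelled libraries.

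IRF proteins share an amino-terminal DNA-binding domain with conserved tryptophans that reads repeats of GAAA. IRF3 is made constitutively and is activated by phosphorylation, whereas transcription of IRF7 and IRF1 is itself raised by interferon, IRF7 through a complex that contains STAT2 and IRF9. IRF1 activates many genes at sites where IRF2 can bind and repress, and IRF5 is best known in myeloid cells, where it drives inflammatory cytokine genes.

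The sequence that IRF proteins read is shown first, because several target genes that carry it were among those that fell most. The interferon-stimulated response element (ISRE) was searched as GAAA, any 2 bases and GAAA again, which on the opposite strand reads TTTC, any 2 bases and TTTC, on both strands in the 250 bases before each RefSeq gene start on GRCh38.p14. It was found in 3.02% of 35116 promoters, which belong to 27305 genes, and 3.71% of these genes had it before at least 1 start. Of the IRF3 and IRF7 target genes listed below 9 of 12 with a promoter in the RefSeq table had a match, as did 6 of 8 IRF1 target genes. Both lists were written as known IRF targets, so a high share of matches was likely in advance and is no evidence about these libraries. The 9 include interferon genes that were not among the tested genes, such as IFNA1 and IFNL1. A match describes the letters and does not show that a factor binds. PSMB9, an IRF1 target that also fell, had no match. IL18BP had a match, but its fold change missed the threshold, and OASL had no promoter in the table. A link between a match and the size of a fall was not tested. Sites from 6 genes follow on the strand of the gene, 5′ to 3′, with the matched letters in capitals and overlapping matches joined. The RSAD2 site lies before the second of its listed starts.
ISG15: ctcggGAAAGGGAAACCGAAActgaa
IFIT1: tttagTTTCACTTTCccctt
RSAD2: tcaacTTTCAGTTTCacatg
CXCL10: ttttgGAAAGTGAAAcctaa
TAP1: gccgcTTTCGATTTCGCTTTCcccta
GBP1: agtacTTTCAGTTTCatatt
These sites lie on GRCh38.p14 at chr1:1013379-1013404 (plus strand) for ISG15, chr10:89392502-89392521 (plus) for IFIT1 and chr2:6877627-6877646 (plus) for RSAD2. The others are at chr4:76023704-76023723 (minus) for CXCL10, chr6:32853818-32853843 (minus) for TAP1 and chr1:89065321-89065340 (minus) for GBP1.

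Among the members, IRF1 and IRF5 had promoters in the table, and neither had an ISRE match in the window. The IRF1 promoter is shown because IRF1 fell in these libraries and because its window held an element of the interferon gamma response. It had 1 match to the gamma-activated site (GAS), searched as TTCNNNGAA, which reads the same on both strands and was found in 6.57% of promoters. None of the 4 listed IRF5 starts had a match to either element. The 250 bases before the IRF1 start, chr5:132490774-132491023 on GRCh38.p14 (minus strand), read as follows, with the GAS match, 124 to 116 bases before the start, in capitals.
IRF1: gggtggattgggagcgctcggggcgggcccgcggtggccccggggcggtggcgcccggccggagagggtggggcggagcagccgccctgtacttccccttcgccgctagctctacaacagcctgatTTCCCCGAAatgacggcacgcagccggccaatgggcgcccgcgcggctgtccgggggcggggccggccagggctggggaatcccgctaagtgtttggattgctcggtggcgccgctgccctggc

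Library totals were 5157482 and 5123794 estimated counts in the KMT2D shRNA libraries and 5559449 in the control library. KMT2D itself, the targeted gene, was at 107 and 138 CPM (counts scaled to library size, with TMM factors between libraries) in the libraries labelled KMT2D shRNA, against 100.1 CPM in the control library. It was thus not lower (log2 fold change 0.29, edgeR adjusted p = 0.227), and directions below refer to libraries by their label, not to a loss of KMT2D. Fold change followed transcript length across genes, with Spearman coefficients of 0.456 and 0.46 in libraries 1 and 2 over genes that are not independent replicates. With that trend removed KMT2D was at -0.66 (edgeR adjusted p = 0.00795), and after removal of a further trend with GC content it was at -0.51 (edgeR adjusted p = 0.0664). The epithelial genes KRT8, KRT18, KRT19, EPCAM and CDH1 summed to 836 and 881 CPM in the labelled libraries and 1432 CPM in the control. The keratins KRT8, KRT18 and KRT19 fell, but none passed with the length and GC trends removed (edgeR adjusted p = 0.156, 0.0534 and 0.153). EPCAM, at -0.45, missed the threshold. CDH1 went the other way, with 17.8 and 18.5 CPM in the labelled libraries and 12.7 CPM in the control, and missed it too (0.51). KLK3, a prostate gene that PC-3 cells lack, was in none of the tables. Of 12 leukocyte markers 7 were listed in any library and 3 could be tested, of which 2 fell and 0 rose: CD68 at -1.56 (edgeR adjusted p = 6e-10) and LYZ at -0.64 (edgeR adjusted p = 0.0189), the call of LYZ not holding after removal of the length trend (edgeR adjusted p = 0.287). Over all tested genes 14.5% were lower and 16.5% higher. The summed level of the 12 leukocyte markers was 70.9 and 78.6 CPM in the labelled libraries and 185 CPM in the control, most of it from CD68, which tumour cells also express, and its part in the IRF values was not tested. The pan-leukocyte marker PTPRC was at 1.34 and 2.17 CPM in the labelled libraries against 1.27 CPM in the control, its log2 fold change of 0.45 missed the threshold, and CD3E, MS4A1, LILRA4 and TYROBP were taken as 0.

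IRF7, IRF1 and IRF3 fell in the libraries labelled KMT2D shRNA relative to the control library, and IRF2 and IRF5 missed the threshold. Thus 3 of 5 members fell and 0 rose in edgeR's quasi-likelihood test, which tests at a Benjamini-Hochberg adjusted p under 0.05. Over all 14016 tested genes 14.5% were lower, 16.5% higher and 31.1% called in either direction. The median log2 fold change of the 5 members was -0.81, against -0.01 over all tested genes. With the length trend removed 3 members fell and 0 rose (background 9.38% lower and 9.05% higher). With the length and GC trends removed 2 fell and 0 rose (background 6.59% lower and 6.63% higher), and in DESeq2 3 fell and 0 rose (background 4.27% lower and 6.53% higher). IRF7 had the largest fall, 10.8-fold, followed by IRF1 at 3.36-fold and IRF3 at 1.75-fold. The 95% intervals of these 3 log2 fold changes did not overlap one another, though the differences between genes were not themselves tested. In bulk RNA, fewer cells that express a gene and less RNA per cell cannot be told apart.

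**Figure D1:**
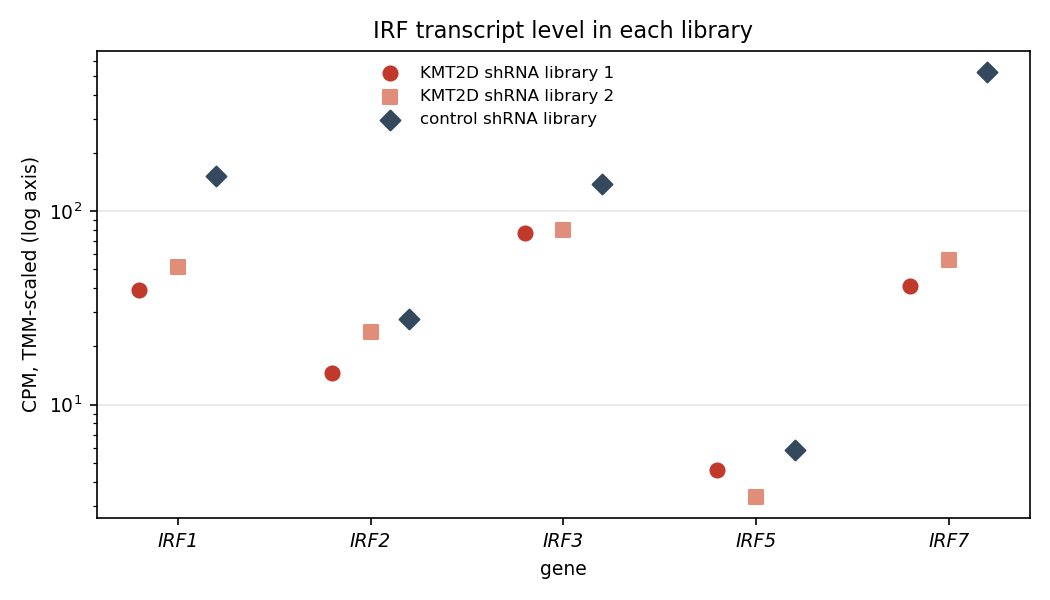
TMM-scaled CPM (log axis) of the 5 IRF genes, 1 point per library: KMT2D shRNA library 1 and library 2, then the control shRNA library. The control stands above both labelled libraries for each gene, by far the most for IRF7 (41.1 and 56.0 CPM in the labelled libraries against 523 CPM in the control).

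IRF7 (Entrez gene 3665, chromosome 11), the factor that amplifies the interferon response once interferon has induced it, had 41.1 and 56.0 CPM in libraries 1 and 2 labelled KMT2D shRNA, against 523 CPM in the control library. Behind these values stood 215 and 284 estimated counts in the labelled libraries and 2882 in the control. Both labelled libraries were far below the control. IRF7 averaged 48.5 ± 10.5 CPM (SD, n = 2) in the labelled libraries, with log2 fold change -3.43 ± 0.18 (SE, 95% interval -3.78 to -3.08, edgeR adjusted p = 2.51e-21). Only 62 of the 14016 tested genes had a lower fold change, so IRF7 stood 63rd from the lowest end. In the control it was higher in CPM than 98.3% of tested genes, whereas its mean over the labelled libraries was higher than 65.3% of them. As a count ratio to the control it stood at 0.0785 for library 1 (95% interval 0.0680 to 0.0902), while for library 2 it stood at 0.107 (0.0943 to 0.121). Library 2 had 1.36 times the IRF7 level of library 1 (95% interval 1.14 to 1.63), a gap beyond counting error but small beside the distance of both from the control. These count intervals are exact binomial ones and cover counting error only. With the length trend removed the log2 fold change was -3.23, and with the length and GC trends removed -3.04.

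IRF1 (Entrez gene 3659, chromosome 5), the activator first found through the interferon beta promoter, had 39.0 and 51.6 CPM in the labelled libraries, against 152 CPM in the control library. The estimated counts were 204.4 and 261.89 in the labelled libraries and 839.24 in the control. They carry decimals in every library, so part of the IRF1 reads was assigned by estimate, while the counts of the other 4 members were whole. IRF1 averaged 45.3 ± 8.94 CPM (SD, n = 2) in the labelled libraries, with log2 fold change -1.75 ± 0.18 (SE, 95% interval -2.10 to -1.40, edgeR adjusted p = 3.88e-11). Both labelled libraries lay well below the control, with ratios to it of 0.256 for library 1 (95% interval 0.218 to 0.299) and 0.339 for library 2 (0.294 to 0.390). As for IRF7, library 2 was the higher of the labelled libraries, here by 1.32 times (95% interval 1.10 to 1.60, counting error only). Removing the length trend left the IRF1 log2 fold change at -1.85, and removing the GC trend as well left it at -1.81.

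IRF3 (Entrez gene 3661, chromosome 19), the constitutive factor that viral nucleic acid sensing activates, had 76.6 and 80.01 CPM in the labelled libraries, against 137 CPM in the control library. It rested on 401 and 406 counts in the labelled libraries and 756 in the control. The labelled libraries lay close together, with library 2 at 1.04 times library 1 (95% interval 0.907 to 1.20, counting error only), and both were below the control. IRF3 averaged 78.3 ± 2.38 CPM (SD, n = 2) in the labelled libraries, with log2 fold change -0.81 ± 0.17 (SE, 95% interval -1.15 to -0.47, edgeR adjusted p = 0.00022). Its transcript is short, with a mean deposited length of 1509 bases, and its GC content is 61.2%. With the length trend removed the log2 fold change was -0.51 and passed (edgeR adjusted p = 0.0315), and with the length and GC trends removed it was -0.37 and did not (edgeR adjusted p = 0.114). Over the 10 alternatives with a test the adjusted p of IRF3 ran from 0.000267 to 0.165. IRF3 overlaps BCL2L12, a gene of the BCL2 family, by gene span in the GRCh38.p14 annotation, and whether their exons overlap was not checked. No step that marks strand is named, so reads from any shared stretch could not be told apart by strand. The estimated counts of both genes were whole in every library, with BCL2L12 at 221 and 214 in the labelled libraries and 330 in the control. BCL2L12 was at 42.2 and 42.2 CPM in the labelled libraries and 59.9 CPM in the control, with log2 fold change -0.51 ± 0.18 (SE, edgeR adjusted p = 0.031). BCL2L12 did not pass after removal of the length trend (-0.29, edgeR adjusted p = 0.287) or of the length and GC trends (-0.20, edgeR adjusted p = 0.441). The deposited length of IRF3, which varies with the transcripts used, was 1522 and 1527 bases in the labelled libraries and 1478 bases in the control.

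IRF2 (Entrez gene 3660, chromosome 4), which can repress at IRF1 sites, had 14.5 and 23.8 CPM in the labelled libraries, against 27.6 CPM in the control library. Counts were 76 and 121 in the labelled libraries and 152 in the control. Both labelled libraries were below the control, library 1 clearly and library 2 by little. The mean was 19.2 ± 6.59 CPM (SD, n = 2) in the labelled libraries, and the log2 fold change of -0.53 (SE 0.23, 95% interval -0.997 to -0.06) missed the threshold (edgeR adjusted p = 0.0809). The value turned on which library was used. It was -0.91 with library 1 alone, a ratio of 0.526 to the control (95% interval 0.394 to 0.697), and -0.21 with library 2 alone, a ratio of 0.864 (0.675 to 1.10). IRF2 also had the widest gap between the labelled libraries among the members, with library 2 at 1.64 times library 1 (95% interval 1.22 to 2.22, counting error only).

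IRF5 (Entrez gene 3663, chromosome 7) was the lowest of the members, with 4.59 and 3.35 CPM in the labelled libraries against 5.81 CPM in the control library. Only 24 and 17 counts in the labelled libraries and 32 in the control stood behind these levels. The labelled libraries were both below the control, but the ratio intervals included 1 in library 1 (0.445 to 1.38) and library 2 (0.300 to 1.07). Its log2 fold change of -0.55 (SE 0.44, 95% interval -1.43 to 0.34) missed the threshold (edgeR adjusted p = 0.369). At this depth the interval holds both a fall like that of IRF3 and no change.

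**Figure D2:**
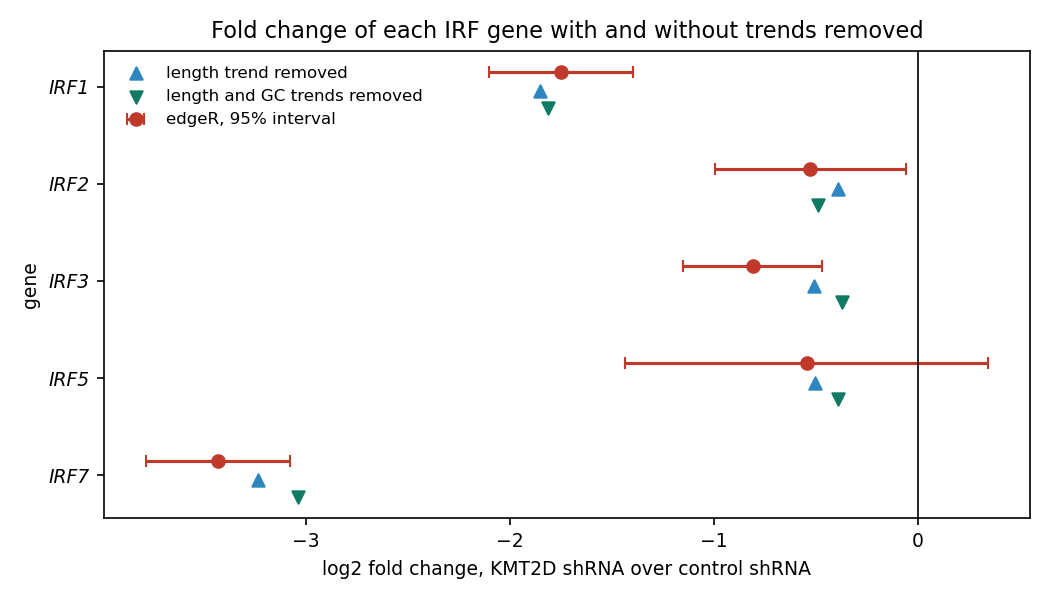
Log2 fold change of each IRF gene, KMT2D shRNA over control shRNA: circles with bars are the edgeR estimates with 95% intervals, and triangles are the estimates with the length trend, or the length and GC trends, removed. IRF7 lies between -3.43 and -3.04 and IRF1 between -1.85 and -1.75 in all 3 fits, whereas IRF3 moves from -0.81 to -0.37 as trends are removed.

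Levels of different genes were compared per length, on the deposited FPKM (counts scaled to transcript length and library size). In the labelled libraries the order by FPKM was IRF3, IRF7, IRF1, IRF2 and IRF5, and it was the same in library 1 and library 2. The control library differed only in the first places, with IRF7 above IRF3. IRF3 had 51.55 and 52.35 FPKM in the labelled libraries and 92.66 FPKM in the control. IRF7 had 21.01 and 27.82 FPKM in the labelled libraries and 260.45 FPKM in the control. The ratio of IRF7 to IRF3 in FPKM was thus 0.408 and 0.531 in the labelled libraries, against 2.81 in the control. For IRF1, FPKM was 11.05 and 14.26 in the labelled libraries and 41.99 in the control. IRF2, its counterpart at shared sites, had 6.41 and 10.27 FPKM in the labelled libraries and 11.85 FPKM in the control, so that IRF1 stood 1.72 and 1.39 times above IRF2 in the labelled libraries and 3.54 times in the control. IRF5 was at 1.64 and 1.2 FPKM in the labelled libraries and 2.01 FPKM in the control.

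The 5 genes together summed to 91.7 and 105.9 FPKM in the labelled libraries and 409 FPKM in the control. IRF7 made up 22.9% and 26.3% of that sum in the labelled libraries, against 63.7% in the control. IRF3 took 56.2% and 49.4% in the labelled libraries, against 22.7% in the control, although its own FPKM was lower in the labelled libraries. A share can rise while the level falls, because the shares of a library add up to the whole. The share of IRF1 stayed between 10.3% and 13.5% in the 3 libraries.

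**Figure D3:**
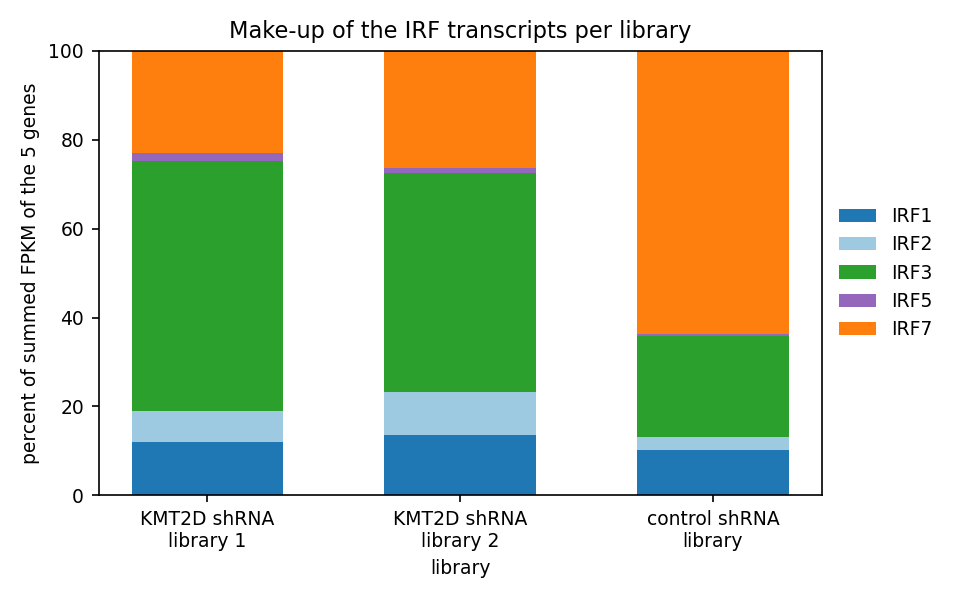
Percent of the summed FPKM of the 5 IRF genes that each gene made up, in KMT2D shRNA library 1, KMT2D shRNA library 2 and the control shRNA library. IRF3 is the largest part in both labelled libraries (56.2% and 49.4%), and IRF7 is the largest part in the control (63.7%).

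Outside the 5 members, IRF9, a partner of STAT2, had 38.0 and 30.7 CPM in the labelled libraries against 110 CPM in the control, and fell by 1.68 on the log2 scale, with an SE of 0.18 (edgeR adjusted p = 2e-10). IRF9 in library 2 was 0.808 times its level in library 1, with an interval that just includes 1 (0.651 to 1.002, counting error only). IRF4, a lymphocyte factor, had 1.12 and 2 estimated counts in the labelled libraries and 5.86 in the control, and IRF8, a myeloid factor, had 0 in both labelled libraries and 1 in the control. Neither IRF4 nor IRF8 could be tested. A count of 0 allows up to 3 counts, or 0.573 and 0.591 CPM in the labelled libraries.

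For each member the 3 genes of nearest pattern were found by the Euclidean distance between centred log2 CPM over the 3 libraries, among 11908 genes with a mean of 5 CPM or more. The distance describes these 3 libraries only, of which 1 is the control. Nearest to IRF7 were SP110, a nuclear body protein, at a distance of 0.168, TYMP, thymidine phosphorylase, at 0.169, and the mono-ADP-ribosyltransferase PARP10 at 0.177. No gene lay within a distance of 0.1 of IRF7. For IRF1 there were 2 such genes, MISP, a spindle-positioning actin-bundling protein, at 0.0802 and TIMP1, a metalloproteinase inhibitor, at 0.0960, and the pseudogene WASH8P, of a near-identical family, came next at 0.103. IRF3 had 200 genes within 0.1, IRF5 had 101 and IRF2 had 27, so the names of their nearest genes say little. They were SDHAF2, DDRGK1 and NDUFS8 for IRF3, RASGRP3, TOMM5 and PEX11A for IRF5, and MGST1, SEPTIN7P2 and FUT2 for IRF2.

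Of 12 genes that induce IRF transcription, all tested, 3 fell and 1 rose, with a median log2 fold change of -0.13. That is a share close to the 31.1% called in either direction over all tested genes, and most receptors and kinases did not pass. STAT2, which carries the signal of type I interferon to the nucleus, had 114 and 109 CPM in the labelled libraries and 404 CPM in the control, with log2 fold change -1.86 ± 0.16 (SE, edgeR adjusted p = 5.85e-13). The interferon gamma receptor chain IFNGR2 fell by 0.48 on the log2 scale, and the kinase JAK1 rose by 0.63. Neither IFNGR2 nor JAK1 passed after removal of the length trend (edgeR adjusted p = 0.176 and 0.175), and 18.4% of all tested genes were called in that fit.

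The proteins that sense nucleic acid and activate IRFs also split. Of 20 such genes 19 could be tested, and 7 fell and 3 rose, with a median log2 fold change of -0.24. Over all tested genes 14.5% were lower and 16.5% higher. The cytosolic RNA sensors IFIH1 and RIGI fell by 3.77 and 3.13 on the log2 scale. IFIH1 had 15.7 and 11.0 CPM in the labelled libraries and 183 CPM in the control (edgeR adjusted p = 2.03e-21), and RIGI had 27.7 and 24.0 CPM in the labelled libraries and 228 CPM in the control (edgeR adjusted p = 7.23e-20). The endosomal RNA receptor TLR3 fell by 2.44 on the log2 scale, to 0.956 and 1.97 CPM in the labelled libraries against 7.99 CPM in the control. The other 4 that fell were MYD88, the adaptor that leads to IRF5 and IRF7, at -1.51, STING1, the DNA-sensing adaptor, at -0.81, the kinase IKBKE at -0.82 and the kinase adaptor AZI2 at -0.57. STING1 did not pass after removal of the length and GC trends (-0.55, edgeR adjusted p = 0.0881), and STING1, IKBKE and AZI2 were not called in DESeq2 (adjusted p = 0.298, 0.103 and 0.316). TLR3 rested on 5 and 10 counts in the labelled libraries and 44 in the control, and DESeq2 gave it no adjusted p. TBK1, the main IRF3 kinase, was at 25.2 CPM in each labelled library and 29.8 CPM in the control, and its log2 fold change of -0.24 (SE 0.21) missed the threshold (edgeR adjusted p = 0.416). The genes of this group that rose were the kinase IRAK1 by 0.72, the RNA-sensing adaptor MAVS by 0.70 and the ubiquitin ligase TRAF3 by 0.64 on the log2 scale. With the length trend removed the calls of MAVS (-0.02, edgeR adjusted p = 0.956) and TRAF3 (0.13, edgeR adjusted p = 0.681) were lost, and the direction of MAVS turned, while IRAK1 stayed higher (0.62, edgeR adjusted p = 0.0109).

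Genes that restrain IRF proteins went both ways as well: of 15, all tested, 6 fell and 2 rose, with a median log2 fold change of -0.10. The background over all tested genes was 14.5% lower and 16.5% higher. RBCK1, a ubiquitin ligase that marks IRF3 for degradation, had 118 and 128 CPM in the labelled libraries and 504 CPM in the control, with log2 fold change -2.03 ± 0.16 (SE, edgeR adjusted p = 2.48e-14). SOCS1, an inhibitor of JAK kinases, fell by 1.94 and the translational repressor EIF4EBP1 by 1.17 on the log2 scale, and EIF4EBP2, its paralog that restrains IRF7 translation in mouse, rose by 0.91 ± 0.17 (SE, edgeR adjusted p = 5.99e-05). The IRF2-binding corepressors IRF2BP1, IRF2BP2 and IRF2BPL had log2 fold changes of 0.07, -0.00 and 0.04 and did not pass. With the length trend removed 4 of the 15 fell and 0 rose (background 9.38% lower and 9.05% higher). In that fit EIF4EBP2 was at 0.41 (edgeR adjusted p = 0.0905) and SOCS1 at -1.56 (edgeR adjusted p = 0.0779). EIF4EBP1 did not pass with the length and GC trends removed (-0.47, edgeR adjusted p = 0.0545). SOCS1 had 4 and 9 counts in the labelled libraries and 27 in the control. It reached the filter on low counts through the control library alone, so it could not have been called higher. Of the other 14 genes 5 fell and 2 rose. Among all 13721 tested genes not kept through the control alone, 1946 fell and 2319 rose.

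Most tested target genes of the IRFs fell. All 10 tested IRF3 and IRF7 target genes fell, of 15 on the list, with a median log2 fold change of -4.80, or -4.68 with CXCL10 at its bound. The share that fell over all tested genes was 14.5%. The list of IRF3 and IRF7 targets and that of IRF1 targets overlap the interferon response genes whose fall in these libraries was known when they were written. Neither list therefore adds independent evidence. OASL, an antiviral relative of the oligoadenylate synthetases, had 8.22 and 3.94 CPM in the labelled libraries and 560.0 CPM in the control, with log2 fold change -6.51 ± 0.22 (SE, edgeR adjusted p = 2.25e-28). RSAD2, the antiviral enzyme viperin, had 4.78 and 4.14 CPM in the labelled libraries and 299 CPM in the control, with log2 fold change -6.06 ± 0.21 (SE, edgeR adjusted p = 7.84e-28). The chemokine gene CXCL10 had 0 counts in both labelled libraries and 36 in the control (edgeR adjusted p = 8.57e-07). Against a floor of 3 counts in each library it was at least 11.1-fold lower, with the control count taken as exact. The filter on low counts kept CXCL10 through the control library alone, so it could not have been called higher. Of the other 9 tested genes 9 fell, against 1946 of all 13721 tested genes not kept through the control alone. The smallest fall on the list was that of the chemokine gene CCL5, at -0.87, which did not pass after removal of the length trend (-0.49, edgeR adjusted p = 0.0634).

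Transcripts of interferon genes themselves, which IRF3 and IRF7 switch on, were near the limit of detection. IFNB1, interferon beta, had 0 counts in both labelled libraries and 9 in the control. Against the floor of 3 counts this is at least 2.76-fold lower, with the control count taken as exact although its own counting error is large. IFNL1, an interferon of the lambda type, had 0 in both labelled libraries and 11 in the control, at least 3.38-fold lower by the same measure. Neither passed the filter on low counts, so neither was tested in that fit, and IFNA1 was in none of the tables and was taken as 0.

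Of 13 IRF1 target genes 11 could be tested, and 9 fell and 0 rose, with a median log2 fold change of -1.94. The background over all tested genes was 14.5% lower and 16.5% higher. SOCS1 is on the IRF1 target list as well as among the restraints. PSMB9, a catalytic subunit of the immunoproteasome, had 2.68 and 3.15 CPM in the labelled libraries and 51.0 CPM in the control, with log2 fold change -4.12 ± 0.26 (SE, edgeR adjusted p = 6.74e-18). GBP1, a guanylate-binding protein of cell-autonomous defence, had a log2 fold change of -3.90 (edgeR adjusted p = 2.51e-18). CASP1, the inflammatory caspase, had 6 and 4 counts in the labelled libraries and 59 in the control. CASP1 and SOCS1 reached the filter on low counts through the control library alone. Of the other 9 tested genes on the list 7 fell and 0 rose, with a median log2 fold change of -1.37. Among all 13721 tested genes not kept through the control alone, 1946 fell and 2319 rose. TAP1, which carries peptides to class I molecules and whose ISRE is shown above, had 38.2 and 44.0 CPM in the labelled libraries and 267 CPM in the control. The target genes that did not pass were IL15, at -0.73, and IL18BP, at -0.19. Among 6 IRF5 target genes, of which 3 could be tested, IL6 and CCL5 fell and IL23A, at 0.65, did not pass. CCL5 is also on the list of IRF3 and IRF7 targets. It did not pass after removal of the length trend (edgeR adjusted p = 0.0634) or in DESeq2 (adjusted p = 0.109). IL6, an inflammatory cytokine, had 3.25 and 6.31 CPM in the labelled libraries and 49.6 CPM in the control, with log2 fold change -3.37 ± 0.25 (SE, edgeR adjusted p = 3.6e-15). TNF, IL12A and IL12B, typical IRF5 targets in myeloid cells, were too low to be tested.

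**Figure D4:**
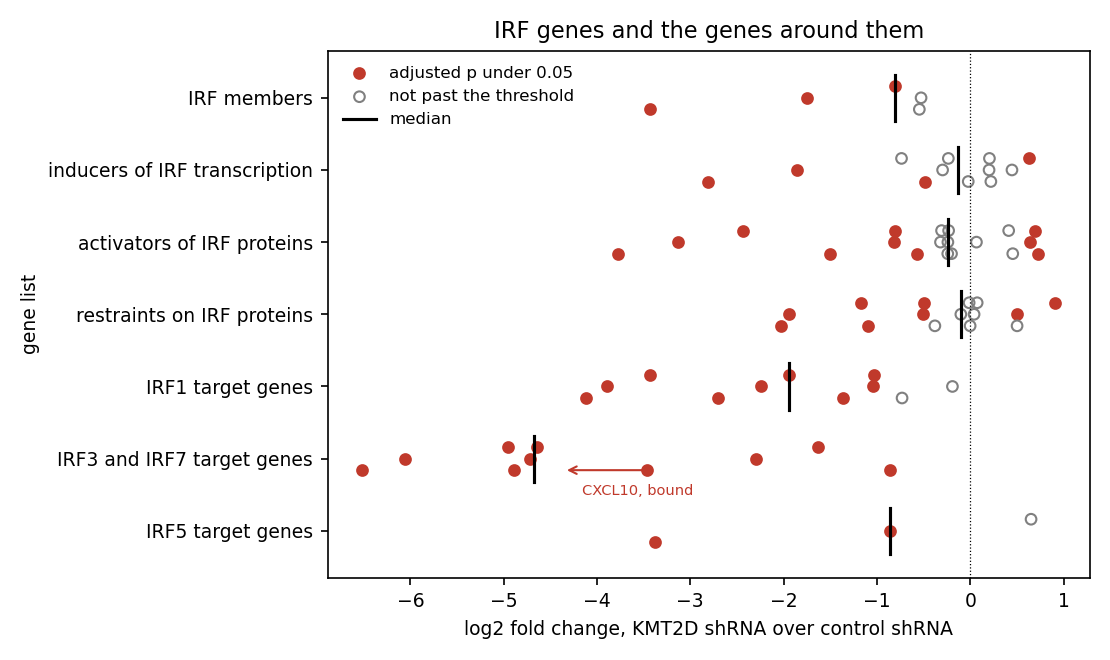
Log2 fold change, KMT2D shRNA over control shRNA, of each tested gene on 7 lists: filled points passed edgeR's test at an adjusted p under 0.05, open points did not, and vertical bars are list medians. IRF3 and IRF7 targets lie farthest to the left (median -4.68 with CXCL10, which had 0 counts in the labelled libraries, drawn at its bound with an arrow), and genes that activate or restrain IRFs lie on both sides of 0.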

How the data were processed

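Polyadenylated RNA was sequenced on a BGISEQ-500, per the labels' protocols. The submitters' processing notes name HISAT, Bowtie2 and the build hg19, without roles or versions; the counting tool is not given in these sources. The authors deposited, per the file headers, 1 table per library with expected counts (estimated reads per gene, not normalized, about 68.0% whole numbers), FPKM (scaled to transcript length and library size by the authors) and transcript length in bases. A gene missing from a table was taken as 0.

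Tables were joined on the Entrez identifier and named from RefSeq (18214 identifiers directly, 6 through a transcript, 111 unmatched). Expected counts were rounded. The test was edgeR 4.0.16 in R 4.3.3 (default filter by group, TMM, quasi-likelihood F test on group, Benjamini-Hochberg, threshold 0.05, 1 residual degree of freedom). The code was run on simulated counts with the same spread in every library and gene and no length trend. That run does not give the error rate in these data. SE values derive from the F statistic. Alternatives used DESeq2 1.42.0, limma 3.58.1 on log2(FPKM + 1) or log2(FPKM + 0.1), other scalings and filters, and offsets that remove loess trends (span 0.4) of fold change with length and GC content. A count of 3 was the floor; intervals and floors cover counting error only, since no molecular identifiers are named. Totals of 5123794 to 5559449 counts limit precision for genes such as IRF5.

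Some genes on the lists are not reported here by name. Members and lists were chosen with earlier results of these data known. Named were the members, KMT2D, the other IRF genes, on each list up to 3 genes with the largest change past the threshold and 1 in the opposite direction, the 3 genes nearest in pattern and the flanking measured genes; other genes named (TBK1, TAP1, IFNB1, IFNL1, MYD88, STING1, IKBKE, AZI2, MAVS, TRAF3 and the like) were chosen after their values were seen.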

Additional observations from a re-analysis of the deposited data

How the results depend on the processing

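The log2 fold changes of all 5 members kept their direction in every alternative that gave one. IRF2 and IRF5 missed the threshold throughout (DESeq2 gave no adjusted p for IRF5, which a minimum of 5 CPM leaves out). IRF1 and IRF7 passed in every count-based setting. In limma on log2(FPKM + 1), log2(FPKM + 0.1) and log2(FPKM + 1) at a mean FPKM of 1 or more, IRF1 was at -1.66, -1.73 and -1.66 and IRF3 at -0.82, -0.83 and -0.82 without passing. IRF7 did not pass in the first settings, at -3.38 and -3.42, but did in the third. IRF3 was at -0.37, not passed, with length and GC trends removed. Over the alternatives with a test the adjusted p ran from 7.94e-11 to 0.177 for IRF1 and from 2.56e-38 to 0.165 for IRF7.

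In those 3 limma settings 0, 0 and 190 genes passed overall (4576, 4583 and 4201 at an unadjusted p under 0.05) and 0, 0 and 1 members (3 unadjusted in each). Lists gave 0, 0 and 2 activators (8, 4 and 8 unadjusted), 0, 0 and 1 restraints (6, 5 and 7), 0, 0 and 2 inducers (5, 5 and 4), 0, 0 and 5 IRF1 targets (7, 7 and 8) and 0, 0 and 0 IRF5 targets (4, 4 and 3; edgeR 2). IRF3 and IRF7 targets gave 0 and 0 in the first settings (14 and 14 unadjusted). Over all genes 4352 of 14016 passed in the main fit (31.1%) and 2583 of 14016 after removal of the length trend (18.4%). After removal of the length and GC trends 1812 of 13709 passed (13.2%), and in DESeq2 1169 of 10826 with an adjusted p (10.8%). With library totals 3245 genes passed, and without a filter 1897 passed, out of a larger set. Without a filter 6 activators, 4 restraints and 2 inducers passed; after removal of the length trend 4 restraints, 2 inducers and 1 IRF5 target, and of both trends 3, 2 and 1; in DESeq2 5 activators, 4 restraints, 2 inducers and 1 IRF5 target; with library totals 5 restraints. The cause of these changes was not tested.

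Leaving out a KMT2D shRNA library leaves no residual degrees of freedom, so those settings give values and no test: IRF1 -1.96 to -1.55, IRF2 -0.91 to -0.21, IRF3 -0.84 to -0.78, IRF5 -0.73 to -0.32 and IRF7 -3.66 to -3.22. No paired analysis was possible because the control group has 1 library, with no number in its label.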

Other observations

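The measured genes that flank the IRF genes on their chromosomes, in the order of the GRCh38.p14 annotation, did not all move with them. Beside IRF1, the long non-coding RNA CARINH had 5 and 4 counts in the libraries labelled KMT2D shRNA and 39 in the control, with log2 fold change -2.99 ± 0.59 (SE, edgeR adjusted p = 0.000102), or -2.34 with length and GC trends removed (edgeR adjusted p = 0.0215). CARINH reached the filter on low counts through the control library alone, so it could not have been called higher. On the other side of IRF1 the DNA repair gene RAD50 rose, with 22.9 and 24.6 CPM in the labelled libraries and 11.4 CPM in the control (log2 fold change 1.05, SE 0.25, edgeR adjusted p = 0.00101), which did not pass after removal of the length trend (0.63, edgeR adjusted p = 0.076). Next to IRF5 the nuclear import receptor gene TNPO3 rose by 0.85 on the log2 scale, with an SE of 0.18 (edgeR adjusted p = 0.000301), or by 0.63 after removal of the length trend (edgeR adjusted p = 0.0114), and KCP did not pass (-0.24, edgeR adjusted p = 0.799). PHRF1, a PHD and RING finger protein gene beside IRF7, had 105 and 109 CPM in the labelled libraries and 101 CPM in the control, with log2 fold change 0.08 ± 0.17 (SE, edgeR adjusted p = 0.767), and DRD4 on the other side was too low to be tested. Around IRF3, SCAF1 and PRMT1 had log2 fold changes of -0.32 and -0.19 and did not pass (edgeR adjusted p = 0.145 and 0.401), but SCAF1 was lower after removal of the length trend (-0.53, edgeR adjusted p = 0.0246) and not after removal of the length and GC trends (-0.28, edgeR adjusted p = 0.21). On 1 side of IRF2, LINC02363 was too low to be tested.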
